A study of Mus musculus with 31 samples.

Results

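The genes described here are 29 genes of cholesterol synthesis and sterol regulation, listed by symbol for their known function, of 19902 genes that had an array probe matched to 1 gene symbol. Of these, 19 encode enzymes of the sterol pathway, from Acat2 to Dhcr7, and 10 encode its regulators, sterol carriers and sterol transporters. The selection rule uses no measured value, although the list was drawn up with earlier results of these data known. All 29 genes passed the filter on dim probes in every comparison.

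RNA of forebrain hemispheres from NMRI mice at 5 days of age was measured on 31 two-colour Agilent arrays, each array holding a control or reference RNA in Cy3 and a test RNA in Cy5, with no dye swap. Each RNA was a pool of hemispheres, 6 by the main methods and 3 by the notes of the supplement, taken from sex-matched mice of several litters, so that the spread between arrays is a spread between pools and not between pups. In Experiment 1, MgSO4 at 600 mg/kg without injury (Mg) was compared with control mice on 4 arrays at 3, 12 and 24 h each and on 7 arrays at 6 h. In Experiment 3, hypoxia-ischemia (HI), which joins a permanent right carotid ligature to a period of low oxygen, was compared with control mice on 3 arrays at 3 h and on 3 at 12 h. In Experiment 2, MgSO4 was given before HI (MgHI), also with 3 arrays at 3 h and 3 at 12 h.

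The labels and the methods did not give the same account of some groups. Controls were PBS-injected by the labels and untreated by the methods, and the injection was subcutaneous in the one and intraperitoneal in the other. The titles of the HI arrays hold a PBS tag for the HI mice and call the control mice naive. The treatment field of the Cy5 channel on the HI arrays names MgSO4, against their titles and source names, and these arrays were taken as HI without MgSO4. For Experiment 2, the Cy3 reference is RNA of MgSO4-treated naive mice by the titles and RNA of HI mice by the methods, and a workflow drawing puts MgHI in Cy3. For this reason Experiment 2 is reported by dye channel, with ratios as Cy5 over Cy3. Its Cy3 channel carried injury-response genes above the control level (values below). A gene alike in Cy5 and Cy3 of Experiment 2 is therefore not shown to be unchanged by HI.

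Cholesterol in the brain is made locally, because the blood-brain barrier keeps out cholesterol carried in lipoproteins, and most of it ends up in myelin and cell membranes. Synthesis runs from acetyl-CoA through mevalonate to farnesyl diphosphate, then to squalene and lanosterol, and through a series of demethylation, reduction and isomerization steps to cholesterol. Its genes are driven by the sterol regulatory element-binding proteins, membrane-bound precursors that SCAP escorts to the Golgi for cleavage when sterols are low and that INSIG proteins hold back in the endoplasmic reticulum when sterols are high, whereas oxysterols act through liver X receptors to raise the cholesterol exporters ABCA1 and ABCG1.

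Across the arrays, 45.2 to 69.7% of probes in Cy3 and 54.4 to 70.2% in Cy5 were well above background, and no member was saturated. The forebrain markers Tbr1, Neurod6, Dlx1 and Dlx2 were each well above background on every array. The 3 arrays of HI 3 h correlated at 0.61 to 0.65 over all genes, those of HI 12 h at 0.27 to 0.69, and those of Experiment 2 at 0.34 to 0.63 (3 h) and 0.40 to 0.52 (12 h). The 7 arrays of Mg 6 h did not share 1 direction: their 21 pairs correlated at -0.43 to 0.87, with 5 pairs below -0.3, and the direction of the Mg 6 h values is not settled. On the Experiment 2 arrays, the Cy3 channel carried the injury-response genes Fos, Atf3, Hmox1, Ccl4 and Cxcl10 at a summed signal of 9.05 to 10.3 at 3 h, against 0.95 to 1.08 in the control Cy3 channel of the HI arrays and 7.84 to 12.4 in the HI Cy5 channel, each relative to the array's 75th percentile. Between these Cy3 channels at 3 h, Fos, Atf3, Ccl4 and Cxcl10 were higher in Experiment 2 by 5.37, 3.47, 4.18 and 4.07 (log2 signal). Each had a limma adjusted p under 0.05, as did 0.26% of all genes on the higher side. In these genes the Experiment 2 Cy3 channel was thus not at the level of uninjured control mice, although the titles name naive mice.

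Promoters of 5 enzyme genes and of Abca1 are shown because these genes had the clearest values after HI or, for Hmgcs1, because it holds the only match to the sterol regulatory element core among the members. Each run gives the 150 bases before the RefSeq start (GRCm38.p6), 5′ to 3′ on the gene's strand. Capitals mark the sterol regulatory element core TCACNCCAC, the CCAAT box and the GC box GGGCGG, each read on both strands, so that GTGGNGTGA, ATTGG and CCGCCC are matches too.
Hmgcs1, chr13:119690201-119690350, plus strand: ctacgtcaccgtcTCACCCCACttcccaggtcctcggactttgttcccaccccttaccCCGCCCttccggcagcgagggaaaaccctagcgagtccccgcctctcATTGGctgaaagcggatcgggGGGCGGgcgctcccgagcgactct
Mvk, chr5:114444119-114444268, plus strand: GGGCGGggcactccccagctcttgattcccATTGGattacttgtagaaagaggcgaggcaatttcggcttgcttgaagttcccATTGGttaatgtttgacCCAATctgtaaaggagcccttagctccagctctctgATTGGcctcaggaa
Mvd, chr8:122443423-122443572, minus strand: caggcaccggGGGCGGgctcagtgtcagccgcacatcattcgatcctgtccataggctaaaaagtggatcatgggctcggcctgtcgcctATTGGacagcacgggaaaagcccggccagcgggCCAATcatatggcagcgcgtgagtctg
Idi1, chr13:8885456-8885605, plus strand: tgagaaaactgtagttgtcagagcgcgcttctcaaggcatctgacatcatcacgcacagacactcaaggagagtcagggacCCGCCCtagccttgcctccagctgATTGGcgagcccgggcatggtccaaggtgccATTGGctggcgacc
Msmo1, chr8:64733579-64733728, minus strand: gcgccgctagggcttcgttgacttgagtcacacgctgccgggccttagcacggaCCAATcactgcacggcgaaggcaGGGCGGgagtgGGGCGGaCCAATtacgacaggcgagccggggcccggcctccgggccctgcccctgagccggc
Abca1, chr4:53159896-53160045, minus strand: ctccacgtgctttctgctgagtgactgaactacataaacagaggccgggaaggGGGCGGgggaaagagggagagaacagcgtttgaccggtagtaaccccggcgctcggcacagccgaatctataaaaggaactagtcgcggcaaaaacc
Over the 250 bases before the start, the Mvk promoter held 5 CCAAT boxes, Msmo1 and Hmgcs1 held 3 each, Idi1 and Mvd 2 each, and Abca1 0. A promoter entry was found for 23 of the 29 genes, with 31 promoters in all, and not for Fdps, Fdft1, Sqle, Stard4, Abcg1 and Npc1. The CCAAT box, the motif that NF-Y binds, was in 67.7% of these 31 promoters and in 33.8% of all 32851 promoters. At least 2 of them were in 38.7% of the member promoters and in 10.1% of all. The GC box, a motif of SP1, was in 77.4% against 32.7%, and the sterol regulatory element core in 3.23% (1 promoter, Hmgcs1) against 1.05%. No match of one motif overlapped a match of another. These shares count letters in a window and are no measure of binding.

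At 12 h after HI, all 19 sterol enzymes had a mean log2 ratio of HI over control below 0. Their median was -0.44, that of the 29 genes was -0.36 and that of all genes tested was 0.00. The signal left was 42.5% of control for Idi1, 54.1% for Msmo1, 55.2% for Mvd and 58.8% for Mvk. No gene of the list passed the test (limma, Benjamini-Hochberg adjusted p under 0.05), which called 0.0137% of all genes (2 of 14590) with 3 arrays in the group, and the smallest adjusted p among the 29 genes was 0.0735. Lower values at an unadjusted p under 0.05 were found for 15 of the 29 genes, 13 of them enzymes, against 13.9% of all genes. Higher values at that threshold were found for 2 genes, Abca1 and Abcg1, against 14% of all genes. A mean at least 1.5-fold lower was found for 7 of the 29 genes against 4% of all genes, and 19 of the 29 were below 0 on every array against 26.3% of all genes. In RNA from a whole hemisphere, fewer cells of a type and less RNA per cell cannot be told apart.

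The first enzymes of the pathway join acetyl-CoA units to mevalonate and phosphorylate it. Acat2, the cytosolic acetoacetyl-CoA thiolase, had log2 ratios of -0.44, -0.44 and -0.19 on the 3 HI 12 h arrays. Hmgcs1, the cytosolic HMG-CoA synthase, had log2 ratios of -0.04, -0.52 and -0.72, a mean of -0.43 ± 0.35 (SD, n = 3; limma adjusted p = 0.177). Its first array was close to control and the other 2 were below it. Mvk, mevalonate kinase, had log2 ratios of -0.61, -0.92 and -0.77, a mean of -0.77 ± 0.15 (SD, n = 3; limma adjusted p = 0.0765). Mvd, which decarboxylates mevalonate diphosphate to isopentenyl diphosphate, had log2 ratios of -0.89, -0.92 and -0.77, a mean of -0.86 ± 0.08 (SD, n = 3; limma adjusted p = 0.0735). Both were below control on every array, by several times their own spread. Pmvk, phosphomevalonate kinase, which acts between them, was nearer to control, with log2 ratios of -0.01, -0.23 and -0.33.

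The isoprene units are then isomerized and condensed. Idi1, isopentenyl-diphosphate isomerase, had the lowest mean of the 29 genes, with log2 ratios of -1.47, -1.17 and -1.07 and a mean of -1.23 ± 0.21 (SD, n = 3; limma adjusted p = 0.0735), a 2.35-fold lower signal. Fdps, farnesyl diphosphate synthase, had log2 ratios of -0.23, -0.54 and -0.63, all below control. Ggps1, which makes the geranylgeranyl diphosphate used for protein prenylation rather than for sterols, had log2 ratios of -0.08, -0.17 and -0.02, the mean nearest to 0 of the genes that were below it on every array. Its other probe had a mean log2 ratio of -0.40, so that this value depended on the probe.

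The sterol-committed steps from squalene to lanosterol gave unlike values. Fdft1, squalene synthase, had log2 ratios of -0.38, -0.45 and -0.50, a mean of -0.44 ± 0.06 (SD, n = 3; limma adjusted p = 0.0994). Sqle, squalene epoxidase, had log2 ratios of -0.29, -0.87 and -0.77, a mean of -0.64 ± 0.31 (SD, n = 3; limma adjusted p = 0.0945). Both were below control on every array. Lss, lanosterol synthase, lay on both sides of control at 0.04, 0.21 and -0.36 (log2 ratio).

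Of the 8 enzymes after lanosterol, 6 were below control on every HI 12 h array. Cyp51, the lanosterol demethylase, had log2 ratios of -0.18, -0.76 and 0.03. Msmo1 and Nsdhl, which remove the methyl groups at carbon 4, were below control throughout. Msmo1 had log2 ratios of -0.93, -0.93 and -0.80, a mean of -0.89 ± 0.08 (SD, n = 3; limma adjusted p = 0.0735). Nsdhl had log2 ratios of -0.72, -0.57 and -0.35, a mean of -0.55 ± 0.19 (SD, n = 3; limma adjusted p = 0.093), and its other probe had a mean log2 ratio of -1.28. Hsd17b7, which acts with them as a ketoreductase, lay at -0.23, -0.33 and 0.26. The reductase Tm7sf2 (mean log2 ratio -0.49), the isomerase Ebp (-0.41) and the desaturase Sc5d (-0.49) were each below control on every array. Dhcr7, 7-dehydrocholesterol reductase at the end of the pathway, was close to control with log2 ratios of -0.12, -0.14 and -0.12.

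The regulators of the pathway gave values in both directions. Srebf1, which encodes SREBP1, had log2 ratios of 0.33, 0.21 and -0.19 at 12 h after HI, and Srebf2, which encodes SREBP2, had 0.35, -0.43 and -0.74. Both lay on both sides of control, and 1 other probe of Srebf2 had a mean of 0.42 where the brightest had -0.27 (log2 ratio). Insig1, the INSIG gene that is itself a target of SREBP2, had log2 ratios of -0.95, -0.63 and -0.37, a mean of -0.65 ± 0.29 (SD, n = 3; limma adjusted p = 0.0915), and was below control on every array. Insig2 had log2 ratios of 0.15, 0.22 and 0.50, above control on every array, although its other probe had a mean of -0.17. Scap lay at 0.70, 0.22 and -0.15.

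Sterol carriers and exporters split. Stard4, a soluble sterol carrier, had log2 ratios of -0.66, -0.70 and -0.68 (mean -0.68 ± 0.02, SD, n = 3; limma adjusted p = 0.0776), and its other probe had a mean of -0.89. Abca1, which exports cholesterol to lipoproteins, had log2 ratios of 0.84, 0.93 and 0.63 (mean 0.80 ± 0.15, SD, n = 3; limma adjusted p = 0.075), a 1.74-fold higher signal. Abca1 was the furthest above control of the 29 genes and was above it on every array. Abcg1, the exporter to HDL, had log2 ratios of 0.81, 0.42 and 0.20 (mean 0.48 ± 0.31, SD, n = 3; limma adjusted p = 0.137). Npc1 and Npc2, which move cholesterol out of lysosomes, had mean log2 ratios of 0.31 and -0.24, and the 3 values of Npc1 ran from -0.27 to 0.91.

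**Figure D1:**
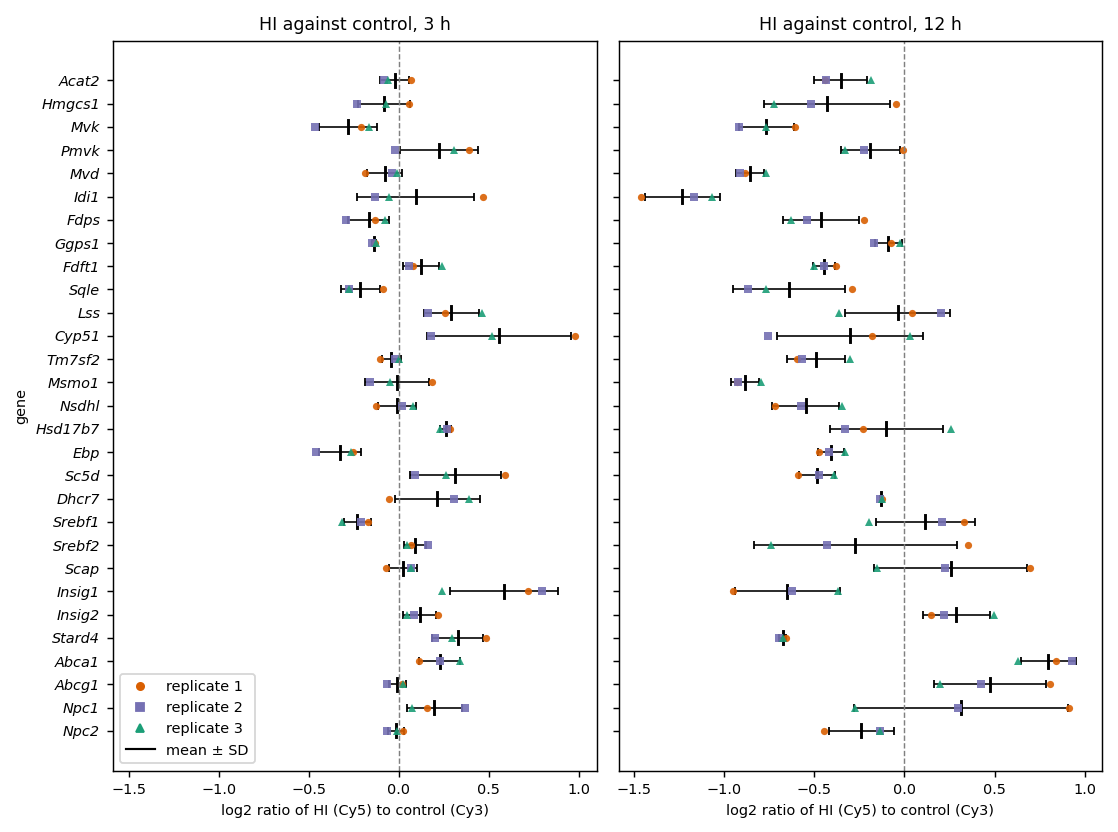
Log2 ratio of HI over control for the 29 genes, ordered by role, at 3 h and 12 h; points are the 3 arrays of each time and lines are the mean ± SD. The 12 h values of Idi1, Mvd, Msmo1 and Stard4 lie below 0 on every array and those of Abca1 above it, whereas most 3 h values lie near 0.

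The number of calls at 12 h rested on the estimate of the spread and on single arrays. In 1 limma fit over all 8 groups, which share the estimate of the spread, 14.6% of all genes and 15 of the 29 genes were called, 14 lower (12 enzymes, Insig1 and Stard4) and Abca1 higher. Without HI 12 h replicate 1, 7 of the 29 genes were called, against 4.26% of all genes. Without replicate 2 the count was 0 against 0.119%, and without replicate 3 it was 13 against 23.2%. The median log2 ratio of the 29 genes was -0.23, -0.44 and -0.33 on the 3 arrays, and 21, 22 and 24 of the 29 genes were below control.

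At 3 h after HI, the median log2 ratio of the enzymes was -0.01 and that of the 29 genes 0.02. Of the 29 genes 2 were called, against 14.9% of all genes. Insig1 rose, with log2 ratios of 0.72, 0.80 and 0.24 and a mean of 0.59 ± 0.12 (SE, n = 3; limma adjusted p = 0.0449), a 1.5-fold higher signal. Ebp fell, with log2 ratios of -0.25, -0.46 and -0.27 and a mean of -0.33 ± 0.07 (SE, n = 3; limma adjusted p = 0.0483), leaving 79.8% of the control signal. Neither call was kept in every leave-one-out fit, in which 0 to 1 of the 29 genes was called. With the unadjusted threshold, 4 of the 29 genes were lower (Mvk, Sqle, Ebp and Srebf1), against 21.7% of all genes, and 7 were higher (Lss, Cyp51, Hsd17b7, Sc5d, Insig1, Stard4 and Abca1), against 15.4%.

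Read from their brightest probes, Idi1, Msmo1, Mvd, Nsdhl and Hmgcs1, all low at 12 h, lay around control at 3 h. Mvk, Sqle, Insig1 and Stard4, also low at 12 h, did not. Idi1 had log2 ratios of 0.47, -0.13 and -0.06 at 3 h, and Msmo1 had 0.19, -0.16 and -0.05. Mvd had log2 ratios of -0.19, -0.04 and -0.01, Nsdhl had -0.13, 0.02 and 0.08, and Hmgcs1 had 0.06, -0.23 and -0.07. Apart from the first array of Idi1, these values were close to control and on both sides of it or, for Mvd, just below it. The other probe of Nsdhl was already below control at 3 h, with a mean log2 ratio of -0.39 (limma adjusted p = 0.0286). Mvk had log2 ratios of -0.21, -0.46 and -0.16 and Sqle had -0.09, -0.27 and -0.27, below control on every array. Srebf1 had -0.17, -0.21 and -0.31, whereas Srebf2 had 0.07, 0.16 and 0.05. Abca1 had log2 ratios of 0.11, 0.23 and 0.34 and Abcg1 had 0.02, -0.06 and 0.03. Stard4 was above control at 0.48, 0.20 and 0.30 (log2 ratio; limma adjusted p = 0.0545), and its other probe had a mean of 0.44 (limma adjusted p = 0.0308).

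Between 3 h and 12 h after HI, the median difference of the log2 ratios was -0.36 for the 29 genes and 0.03 for all genes. No gene was called (0% of all genes, 0 of 29). At an unadjusted p under 0.05, 14 of the 29 genes were lower at 12 h, 12 of them enzymes, against 7.25% of all genes, and 2 genes, Abca1 and Abcg1, were higher, against 9.49%. For 15 of the 29 genes every 12 h value lay below every 3 h value, against 11.8% of all genes. The differences in log2 ratio were -1.33 ± 0.20 for Idi1, -1.24 ± 0.21 for Insig1 and -1.004 ± 0.12 for Stard4 (SE, n = 3 and 3), with limma adjusted p of 0.0928, 0.103 and 0.0826. Insig1 and Stard4 were above control at 3 h and below it at 12 h on every array. On the 1 slide that held an array of each time, the median difference over the 29 genes was -0.42 and 20 genes were lower, and Idi1 differed by -1.41 and Insig1 by -1.20 (log2 ratio).

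Against MgSO4 alone at 12 h, which tests HI against a second group with its own control arrays, the HI 12 h values gave a median difference in log2 ratio of -0.39 for the 29 genes and -0.04 for all genes. No gene of the list was called, against 0.0475% of all genes. At an unadjusted p under 0.05, 13 of the 29 genes were lower, 11 of them enzymes, against 7.43% of all genes. The groups did not overlap for 12 lower genes, against 7.94%. The difference in log2 ratio was -1.26 ± 0.15 for Idi1 (SE, n = 3 and 4; limma adjusted p = 0.0658), -0.92 for Stard4 and -0.86 for Msmo1. The Stard4 value depended on the probe: its other probe had mean log2 ratios of -0.89 in HI and -0.67 in Mg. At 3 h, 1 of the 29 genes was called between HI and Mg, against 0.703% of all genes: Hsd17b7 was higher in HI by 0.52 ± 0.09 (log2 ratio, SE, n = 3 and 4; limma adjusted p = 0.0491), with values of 0.29, 0.27 and 0.23 in HI and of -0.26, -0.27, -0.31 and -0.19 in Mg. The groups did not overlap, but the call was kept in 6 of 17 settings. HI and Mg arrays shared no slide, so that slide and group cannot be told apart in these comparisons.

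Pathways next to sterol synthesis were read from lists of other genes, also drawn up with earlier results known. At 12 h after HI, 0 of 9 genes that process or degrade SREBP and its partners were lower at an unadjusted p under 0.05 (13.9% of all genes) and 0 were higher (14% of all genes), with a median log2 ratio of 0.17. For fatty acid synthesis and elongation, 1 of 11 genes was lower and 1 higher, with a median of -0.04. For the isoprenoid branches to dolichol, ubiquinone and protein prenylation, 2 of 10 genes were lower and 2 higher, with a median of -0.17. For sterol uptake, storage, transport and turnover, 1 of 15 genes was lower and 4 were higher, with a median of 0.20. No gene of these lists was called at 12 h.

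At 3 h after HI, called genes numbered 0 of 9, 1 of 11, 2 of 10 and 3 of 15 in these lists, against 14.9% of all genes. Elovl5, a fatty acid elongase, rose by a log2 ratio of 0.65. Dhdds and Pdss2, of dolichol and ubiquinone synthesis, fell by 0.33 and 0.42. Ch25h, which makes the oxysterol 25-hydroxycholesterol, rose by 0.55, and Nr1h3, which encodes a liver X receptor, and Stard3, a late-endosomal sterol carrier, fell by 0.42 and 0.33. Markers called at 3 h were Snap25 of neurons (log2 ratio 0.35), Mbp of oligodendrocytes (0.61), P2ry12 of microglia (-0.37), Hemgn of red blood cells (0.71) and 5 of 5 injury-response genes, and their part in the sterol gene values was not tested.

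Markers of cell types were read on the same HI 12 h arrays as the sterol genes. The oligodendrocyte lineage had 5 of 7 genes higher and 1 lower at an unadjusted p under 0.05, a threshold that 14% of all genes passed as higher and 13.9% as lower, with a summed signal of 9.33 to 11.2 in control Cy3 and 11.3 to 13.0 in HI Cy5, relative to each array's 75th percentile. Choroid plexus had 3 of 4 genes higher, with summed signals of 51.7 to 63.5 and 82.5 to 142. Microglia had 2 of 5 genes lower and 1 higher, with summed signals of 13.3 to 14.7 and 11.9 to 14.1, and red blood cells had 1 of 4 higher, with summed signals of 78.5 to 90.6 and 99.2 to 174. Astrocytes had 2 of 5 genes higher, neurons 1 of 5 and endothelium 0 of 3. The injury-response genes were higher for 5 of 5, with Ccl4 called at a log2 ratio of 4.30. The part of these markers in the sterol gene values was not tested.

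On the Experiment 2 arrays, Cy5 was compared with Cy3. At 12 h, the median log2 ratio of Cy5 over Cy3 was 0.02 for the 29 genes and -0.03 for the enzymes, and no gene was called (0% of all genes, 0 of 29). At an unadjusted p under 0.05, 4 of the 29 genes differed (Fdft1, Nsdhl, Srebf2 and Npc1, all higher in Cy5), against 24.3% of all genes. Nsdhl had log2 ratios of 0.46, 0.67 and 0.40 (limma adjusted p = 0.0858), and Srebf2 had 0.77, 0.63 and 0.11. The other probe of Nsdhl had a mean log2 ratio of -0.20, opposite to its brightest probe, and that of Srebf2 had 0.80. Idi1 had log2 ratios of -0.22, -0.0026 and -0.23, and Mvk had -0.21, -0.10 and -0.15. Both were below 0 on every array, by small amounts. Mvd lay at 0.16, 0.58 and -0.09 and Msmo1 at -0.32, 0.05 and -0.17 (log2 ratio). Hmgcs1 lay at 0.23, -0.33 and -0.31, and Sqle at -0.01, -0.02 and -0.10. Of these, Sqle alone kept 1 sign on every array. Insig1 had log2 ratios of -0.12, 0.20 and 0.16, and Srebf1 had -0.15, -0.06 and 0.07. Abca1 had log2 ratios of 0.28, -0.18 and -0.02, and Abcg1 had -0.07, 0.11 and 0.23, both on both sides of 0.

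The single channels of Experiment 2 were also set beside those of the HI arrays, with which they shared slides. In Cy3, the Experiment 2 signal was lower than the control Cy3 of the HI arrays for 23 of the 29 genes, with a median difference of -0.51 in log2 signal (each array centred on its 75th percentile) against -0.03 for all genes. No gene was called (0% of all genes, 0 of 29). At an unadjusted p under 0.05, 16 of the 29 genes were lower, 14 of them enzymes, against 7.88% of all genes, and the groups did not overlap for 17 lower genes against 12.7%. This comparison shares its control arrays with HI 12 h. In the same comparison the injury-response genes had a summed signal of 1.62 to 4.58 against 0.82 to 1.04 in control, 4 of 5 being higher at that threshold, which 5.35% of all genes were. Microglia had 3 of 5 genes lower (summed signal 11.3 to 14.2 against 13.3 to 14.7), and neurons had 2 of 5 lower, Tubb3 and Stmn2 (239 to 271 against 316 to 371). Choroid plexus had 2 of 4 genes higher, Aqp1 and Kl (58.9 to 68.7 against 51.7 to 63.5), astrocytes 1 of 5 higher, Gfap (21.8 to 29.5 against 19.6 to 24.3), and red blood cells 1 of 4 higher (85.2 to 119 against 78.5 to 90.6). The oligodendrocyte lineage had 0 of 7 genes past the threshold and endothelium 0 of 3. The part of these markers in the sterol gene values was not tested.

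Msmo1 had a centred log2 Cy3 signal of 3.94, 4.01 and 4.27 on the Experiment 2 arrays and of 4.96, 5.02 and 5.08 in control, a difference of -0.94 ± 0.14 (SE, n = 3 and 3; limma adjusted p = 0.29). Idi1 had 3.07, 3.23 and 3.65 against 4.25, 4.05 and 4.17, a difference of -0.84 ± 0.18. Mvd had 0.62, 0.26 and 1.24 against 2.15, 1.84 and 1.84, a difference of -1.24 ± 0.26. In each of these enzymes every Experiment 2 value lay below every control value. Mvk (3.66, 3.50 and 3.83 against 4.44, 4.52 and 4.56) and Insig1 (-2.16, -1.86 and -2.14 against -0.88, -1.01 and -1.13) were also apart from control. Abca1 had -0.20, -0.41 and -0.63 against -1.31, -1.35 and -1.44, a difference of 0.96 ± 0.15 in log2 signal, with every Experiment 2 value above every control value. Within the slides that held both kinds of array, the median difference over the 29 genes was -0.45 on one and -0.48 on the other.

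In Cy5 at 12 h, the Experiment 2 arrays, whose Cy5 is MgHI by the labels, were set against the HI arrays. The median difference of the centred log2 signal, Experiment 2 minus HI, was -0.03 for the 29 genes and -0.03 for all genes, and no gene was called (0% of all genes, 0 of 29). By the unadjusted threshold 3 of the 29 genes differed, Ebp and Dhcr7 lower in Experiment 2 and Srebf2 higher, against 11.5% of all genes. Idi1 had a centred log2 signal of 2.85, 3.24 and 3.43 in Experiment 2 and of 2.78, 2.90 and 3.11 in HI, and these values overlapped. The difference was 0.24 ± 0.20 for Idi1, -0.23 ± 0.15 for Mvk, -0.17 ± 0.17 for Mvd, -0.21 ± 0.18 for Msmo1 and 0.18 ± 0.19 for Nsdhl (log2 signal, SE, n = 3 and 3). Each of these was within 2 SE of 0, which does not show that the groups were alike.

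**Figure D2:**
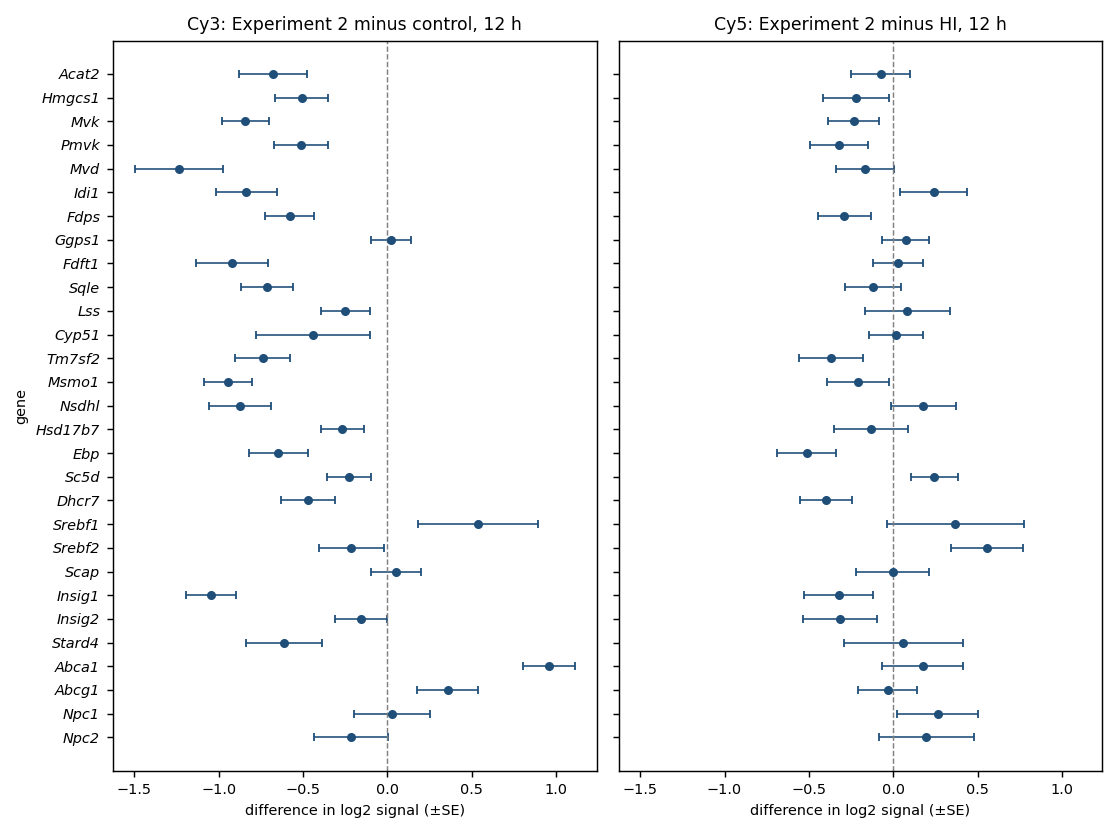
Difference of the centred log2 signal at 12 h for the 29 genes, in Cy3 (Experiment 2 minus the control of the HI arrays) and in Cy5 (Experiment 2 minus HI); points are differences of means over 3 arrays a group and bars are ± SE. The Cy3 differences of the enzymes lie mostly below 0 (median over the 29 genes -0.51), and the Cy5 differences lie on both sides of 0 (median -0.03).

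At 3 h, 5 of the 29 genes rose in Cy5 over Cy3 of Experiment 2, against 6.25% of all genes, and 0 fell, against 2.69%. They were Srebf2 (log2 ratios 0.52, 0.52 and 0.97; 1.59-fold), Fdft1 (0.58, 0.60 and 0.57; 1.5-fold), Stard4 (0.36, 0.61 and 0.66; 1.46-fold), Nsdhl (0.49, 0.62 and 0.51; 1.45-fold) and Lss (0.39, 0.51 and 0.51; 1.39-fold). Their limma adjusted p ran from 0.0194 for Fdft1 to 0.0362 for Lss (n = 3), and each was above 0 on every array. The other probe of Nsdhl had a mean log2 ratio of -0.30, opposite to its brightest probe, whereas those of Srebf2 (1.37), Stard4 (0.60) and Fdft1 (0.35) had the same sign. Leaving out 1 array gave 1 to 6 calls.

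At an unadjusted p under 0.05, 9 of the 29 genes were higher in Cy5 of Experiment 2 at 3 h, 6 of them enzymes, against 13.6% of all genes. At that threshold 0 of the 29 genes were lower, against 12.9% of all genes. Several other genes set by name lay nearer to 0. Idi1 had log2 ratios of 0.05, 0.30 and -0.14, Mvk -0.18, -0.18 and 0.01, and Msmo1 -0.18, -0.07 and -0.34. Mvd was above 0 on every array at 0.38, 0.39 and 0.15, and Hmgcs1 lay at -0.27, 0.00 and 0.11. Sqle (-0.17, -0.03 and -0.05) was below 0 on every array, as was Msmo1. Insig1 lay at 0.10, 0.21 and -0.58 and Srebf1 at -0.09, -0.39 and 0.13 (log2 ratio). Abca1 lay at -0.44, -0.18 and 0.03 and Abcg1 at 0.16, -0.35 and -0.18. Between 3 h and 12 h in Experiment 2, no gene was called (0% of all genes, 0 of 29), and at an unadjusted p under 0.05 the count was 0 of 29 against 3.56% of all genes.

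In the Cy5 channel at 3 h, 4 of the 29 genes differed between the Experiment 2 and HI arrays, against 8.46% of all genes, and none of the 4 was an enzyme. Srebf2 was higher in Experiment 2, with a centred log2 signal of -1.10, -1.21 and -1.23 against -1.95, -1.80 and -2.11, a difference of 0.77 (limma adjusted p = 0.00962). Stard4 was higher, with 0.96, 0.78 and 0.83 against 0.26, 0.11 and 0.16, a difference of 0.68 (limma adjusted p = 0.0095). Both kept their call in all 13 settings tried. Npc1 was higher by 0.43 and Srebf1 lower by a log2 signal difference of -0.39, and in all 4 genes the groups did not overlap. The replicate numbers follow shared slides here, and with the replicate number as a block 32% of all genes and 14 of the 29 genes were called, 9 higher and 5 lower in Experiment 2, Idi1 being higher by 0.31. In Cy3 at 3 h, 0 of the 29 genes were called between Experiment 2 and control, against 0.28% of all genes, and 7 differed at an unadjusted p under 0.05, against 13.2%. Insig1 was higher in Experiment 2 by 0.67 and Stard4 by 0.47 (log2 signal).

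Among the genes of the neighbouring lists, 3 of 11 fatty acid genes and 2 of 15 genes of sterol uptake, storage, transport and turnover were called in Cy5 over Cy3 at 3 h, against 8.95% of all genes. Fads1 and Fads2, the desaturases of polyunsaturated fatty acids, and Elovl5 rose by log2 ratios of 0.96, 0.77 and 0.43, and Cyp46a1, the neuronal 24-hydroxylase that clears brain cholesterol, rose by 0.73. Lipa, the lysosomal acid lipase that frees cholesterol from its esters, fell by 0.59. Between Experiment 2 and HI in Cy5 at 3 h, 2 of 11 and 4 of 15 genes of these lists were called, against 8.46% of all genes. The log2 signal differed by 0.76 for Fads1, 0.68 for Fads2, 0.80 for Cyp46a1, -0.85 for Lipa, -0.44 for Scarb1, the HDL receptor, and -0.45 for Abcg4, a sterol exporter. The astrocyte marker Gfap was lower in Experiment 2 there by a difference of -0.80 and the oligodendrocyte lineage marker Sox10 by -0.50. Their part in the sterol gene values was not tested.

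**Figure D3:**
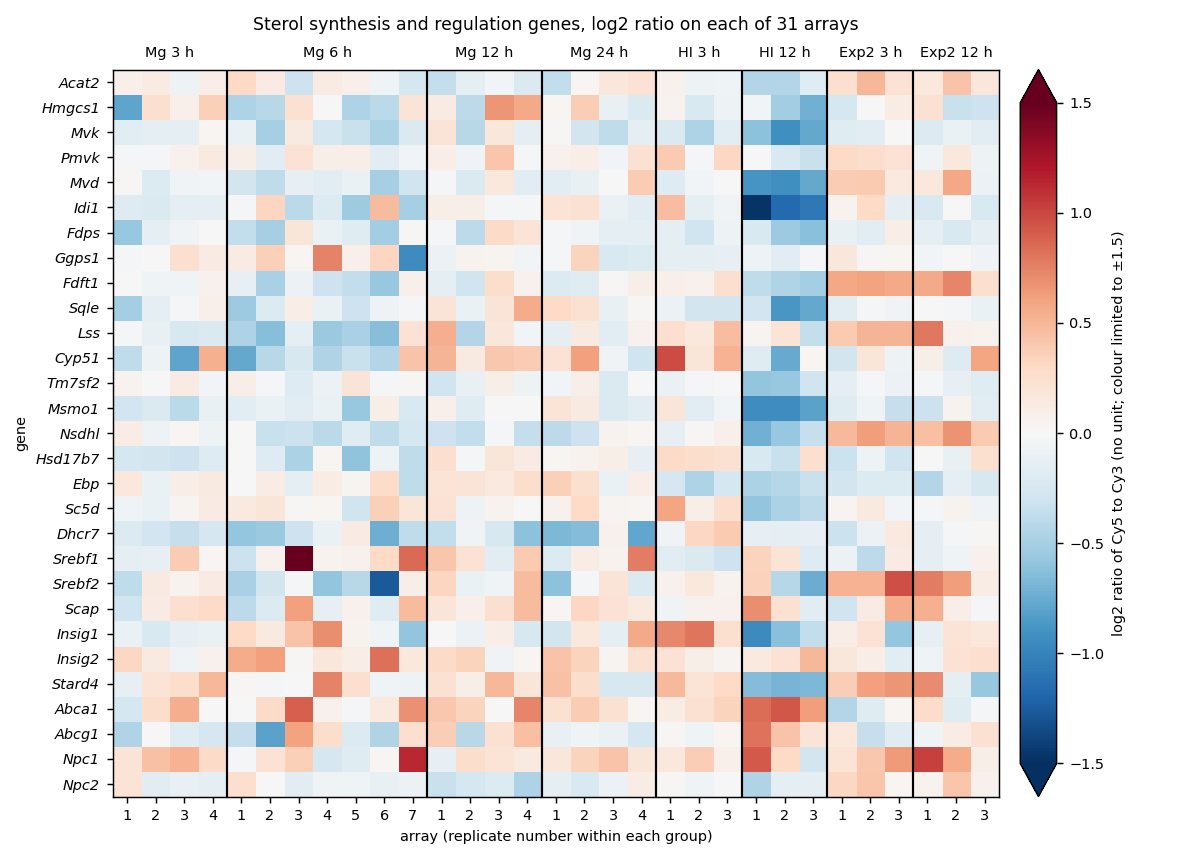
Log2 ratio of Cy5 over Cy3 for the 29 genes (rows, ordered by role) on the 31 arrays (columns, grouped by experiment and time), with the colour scale limited at -1.5 and 1.5. The rows of Idi1, Mvd, Msmo1 and Mvk are darkest blue on the 3 HI 12 h arrays, and the Mg 6 h arrays differ among themselves.

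MgSO4 alone gave small median values over the sterol genes. No gene of the list was called at 3 h (0% of all genes), 6 h (0.0365%), 12 h (0%) or 24 h (0.00714%), nor in the F test over the 4 times (0% of all genes, 0 of 29). Past the unadjusted threshold, 4 of the 29 genes differed from control at 3 h against 9.21% of all genes, 4 at 12 h against 15.9%, 3 at 24 h against 11.3%, and 2 over the 4 times (Hsd17b7 and Cyp51) against 4.12%. The median log2 ratio of the 29 genes was -0.02, 0.06 and 0.02 at 3, 12 and 24 h. Some values depended on the probe. At 12 h, the other probes of Stard4, Tm7sf2 and Srebf2 had mean log2 ratios of -0.67, -0.54 and 0.52, where their brightest had 0.25, -0.10 and 0.16. Srebf1 was well above background in Cy3 on 5 of 7 arrays at 6 h and on 3 of 4 arrays at 12 h and at 24 h, so that its Mg values rest on a dim signal.

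Idi1 had log2 ratios of -0.19, -0.22, -0.14 and -0.13 at 3 h, of 0.09, 0.09, -0.03 and -0.02 at 12 h, and of 0.21, 0.23, -0.10 and -0.17 at 24 h. Msmo1 had -0.28, -0.22, -0.40 and -0.11 at 3 h, 0.07, -0.19, 0.00 and 0.01 at 12 h, and 0.20, 0.13, -0.22 and -0.17 at 24 h. Both were below control on every 3 h array and on both sides of it later. Mvk had log2 ratios of -0.15, -0.13, -0.13 and 0.03 at 3 h, of 0.19, -0.42, 0.17 and -0.15 at 12 h, and of 0.02, -0.27, -0.38 and -0.15 at 24 h. Mvd had log2 ratios of 0.02, -0.20, -0.05 and -0.04 at 3 h, of -0.02, -0.22, 0.16 and -0.17 at 12 h, and of -0.16, -0.11, 0.01 and 0.38 at 24 h. Nsdhl had 0.11, -0.08, 0.03 and -0.07 at 3 h, -0.31, -0.36, -0.02 and -0.36 at 12 h, and -0.39, -0.31, 0.05 and 0.03 at 24 h. Of these, Nsdhl at 12 h was below control on every array. Hmgcs1 had log2 ratios of -0.79, 0.24, 0.08 and 0.36 at 3 h, of 0.12, -0.39, 0.66 and 0.57 at 12 h, and of 0.03, 0.37, -0.11 and -0.21 at 24 h. Sqle had -0.52, -0.13, -0.02 and 0.08 at 3 h, 0.19, -0.09, 0.20 and 0.56 at 12 h, and 0.30, 0.22, -0.12 and 0.02 at 24 h. Their replicates differed by more than their means did from control.

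Insig1 was below control on every 3 h array, at log2 ratios of -0.10, -0.23, -0.13 and -0.10, and had 0.0059, -0.09, 0.11 and -0.25 at 12 h and -0.28, 0.16, -0.15 and 0.57 at 24 h. Srebf1 had log2 ratios of -0.14, -0.13, 0.38 and 0.03 at 3 h, of 0.41, 0.21, -0.17 and 0.40 at 12 h, and of -0.21, 0.11, 0.05 and 0.76 at 24 h. Srebf2 had -0.38, 0.14, 0.05 and 0.12 at 3 h, 0.32, -0.09, -0.05 and 0.48 at 12 h, and -0.62, -0.01, 0.20 and -0.22 at 24 h. Neither kept 1 side of control at any of these times. Abca1 had log2 ratios of -0.26, 0.27, 0.55 and 0.00 at 3 h, of 0.41, 0.34, 0.00 and 0.73 at 12 h, and of 0.23, 0.38, 0.23 and 0.03 at 24 h. Abcg1 was below control on every array at 3 h (-0.46, -0.01, -0.19 and -0.25) and 24 h (-0.11, -0.06, -0.10 and -0.26) and lay at 0.37, -0.42, 0.23 and 0.45 at 12 h. Dhcr7, the last reductase, was among the genes past the unadjusted threshold at each of these 3 times, with mean log2 ratios of -0.27, -0.32 and -0.51, and its 24 h values were -0.68, -0.65, 0.07 and -0.78.

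At 6 h after MgSO4, where the direction is not settled, 9 of the 29 genes were lower in Cy5 at an unadjusted p under 0.05, 8 of them enzymes, against 5.94% of all genes, and with the sign turned the same genes would be higher. The median of the 29 genes was -0.10 (log2 ratio), and 0.10 with the sign turned. Turning the sign of every array would not make the arrays alike. Replicates 3 and 7, both on slide 4, correlated at 0.60 with each other over all genes. With each of the other arrays they correlated at -0.43 to -0.03. Which of these arrays carry the direction of MgSO4 was not tested. Nsdhl had log2 ratios with a lowest value of -0.40, a median of -0.33 and a highest value of -0.01, and Mvd had -0.49, -0.27 and -0.09. Both had 1 sign on all 7 arrays. Mvk had -0.50, -0.27 and 0.13, Idi1 -0.53, -0.21 and 0.47, and Msmo1 -0.57, -0.17 and 0.08 (lowest, median and highest log2 ratio). Hmgcs1 had -0.46, -0.41 and 0.23, and Sqle -0.54, -0.10 and 0.10. These 5 genes had values on both sides of 0. Srebf2 ran from -1.26 to 0.09 with a median of -0.41, and Srebf1 from -0.33 to 1.95 with a median of 0.06. Insig1 ran from -0.59 to 0.70 with a median of 0.15, and Abca1 from -0.02 to 0.90 with a median of 0.15. Abcg1 ran from -0.80 to 0.60 with a median of -0.21. Insig2, at 0.01, 0.17 and 0.83, was the only gene of the list above 0 on all 7 arrays past the unadjusted threshold.

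The 7 arrays lay on 4 slides, and the limma fit with slide as a random block estimated a correlation of 0.62 within slides. Over all genes, pairs on 1 slide correlated at 0.25, 0.87 and 0.60. Replicates 4 and 5, on unlike slides, correlated at 0.61, so that not every pair on 1 slide was more alike. The unadjusted p-values at 6 h treat arrays of 1 slide as independent. With slide as a random block, the limma adjusted p was 0.827 for both Nsdhl and Mvd. Without the pair of arrays on slide 4, a setting chosen after seeing the data, 17.2% of all genes and 5 of the 29 genes were called, 4 lower and 1 higher. In 1 fit over all groups, 12.5% of all genes and 9 of the 29 genes were called. The plot of the Mg 6 h arrays shows the 29 genes on each array, whose medians ran from -0.18 to 0.00.

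**Figure D4:**
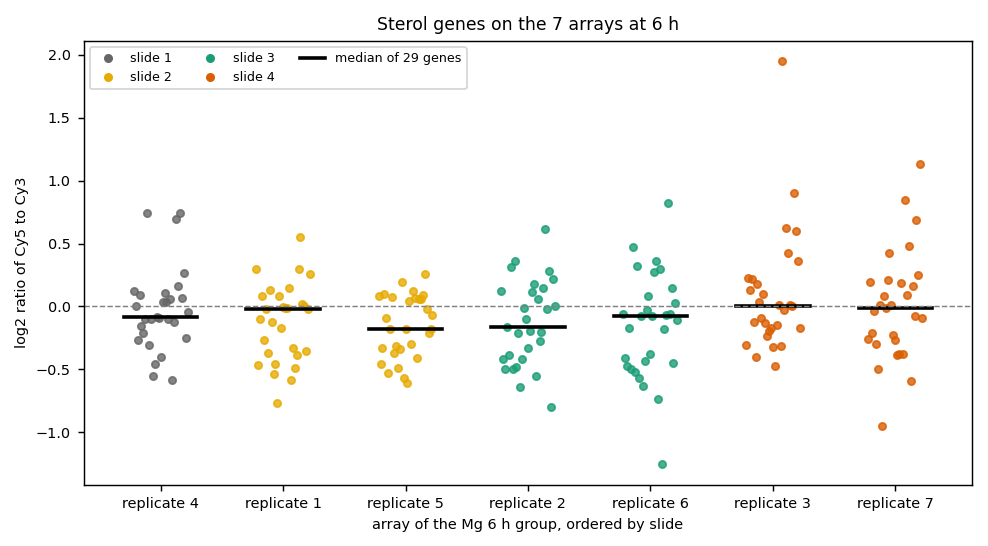
Log2 ratio of Cy5 over Cy3 of the 29 genes on each of the 7 Mg 6 h arrays, ordered by slide, with the median of each array as a line. The medians run from -0.18 to 0.00 and the spread of single genes is wider than the differences between medians.

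Set side by side over 12 comparisons, the share of the 29 genes that was lower at an unadjusted p under 0.05 was above the share of all genes at HI 12 h and in the 12 h Cy3 comparison of Experiment 2, among others. The comparisons that share control arrays are not independent of each other.

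**Figure D5:**
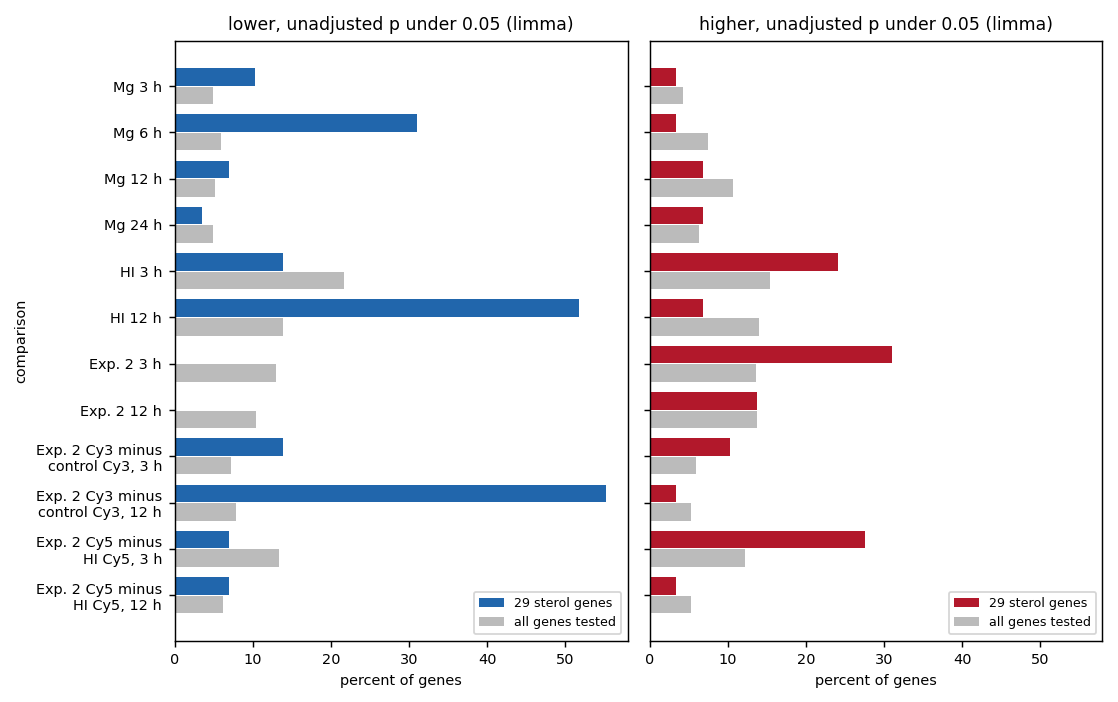
Percent of the 29 genes and of all genes tested with an unadjusted p under 0.05, lower and higher, in 12 comparisons. At HI 12 h 15 of the 29 genes were lower against 13.9% of all genes, and in the 12 h Cy3 comparison of Experiment 2 16 of the 29 against 7.88%.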

How the data were processed

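The authors hybridized pooled forebrain RNA to Agilent 4x44K mouse arrays, with Cy3 for control or reference RNA and Cy5 for test RNA, and read them with Feature Extraction 10.5.1.1 per the labels. The deposited scanner files hold intensity values for each spot, and the processed signals, background-subtracted and dye-normalized by the authors' software, are rounded to 3 significant digits. The deposited series table holds log10 ratios, which matched the log10 of the processed Cy5 over Cy3 intensity and served as an alternative. Of the 44397 spots on an array, 43020 were no controls. From these, log2 ratios were computed after outlier-flagged spots were left out and spots of 1 probe averaged. Probes were named through unversioned RefSeq accessions (GRCm38.p6), which gave a symbol to 27427 of 39429 probes (69.6%), and a gene was read from its brightest probe.

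A probe was tested if, on 66.7% of a group's arrays, 1 of its channels at least was well above background. Tests were run with limma 3.58.1 (R 4.3.3; lmFit and eBayes, Benjamini-Hochberg over all probes tested). A gene was called at an adjusted p under 0.05. Ratios were tested against 0 within a group or between groups, and single channels as log2 processed signal centred on the array's 75th percentile. Scripts were tested on simulated data. The alternatives were normexp (offset 50), no background correction, median centring, other filters, probe and call rules, the authors' log10 ratios, the methods' t-test, a joint fit, slide and replicate blocks, and leaving out each array. All 29 genes were named by rule, with per-array values for called genes and for 12 genes set by name. The members, lists and tests were chosen with earlier results of these data known. The arrays are biological replicates of pooled RNA, so that p-values measure the spread between pools. Precision is limited by how few arrays a group holds. The study's earliest time point was not analysed here.

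Replicate numbers were taken as a possible pairing of the single-channel samples where same-numbered arrays lay on 1 slide and deviated together in every pair. The main tests and their SE were not paired, and the replicate number entered as a block only among the alternatives. Their deviations correlated at 0.21 to 0.39 in Cy3 at 3 h, 0.24 to 0.54 in Cy5 at 3 h and 0.29 to 0.45 in Cy5 at 12 h.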

Additional observations from a re-analysis of the deposited data

Results flagged for a closer look

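In 9 of 116 sets of values of 1 gene in 1 group of 4 to 7 arrays, 1 array stood apart from the others by more than Dixon's 95% limit, and chance alone gives about 1 in 20. At 3 h after MgSO4, Mvk was at 0.0329 on replicate 4 with the others at -0.15 to -0.13, Srebf2 at -0.3789 on replicate 1 with the others at 0.05 to 0.14, and Npc2 at 0.2095 on replicate 1 with the others at -0.16 to -0.11 (log2 ratio). At 6 h, Ggps1 was at -0.9475 on replicate 7 with the others at 0.03 to 0.75, Stard4 at 0.7417 on replicate 4 with the others at -0.08 to 0.26, and Npc2 at 0.2542 on replicate 1 with the others at -0.17 to 0.00. At 12 h, Nsdhl was at -0.0189 on replicate 3 with the others at -0.36 to -0.31. At 24 h, Sc5d was at 0.2948 on replicate 2 with the others at 0.03 to 0.07, and Dhcr7 at 0.0697 on replicate 3 with the others at -0.78 to -0.65. No gene of the HI or MgHI groups could be examined in this way, since they hold 3 arrays each.

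The difference between HI and MgSO4 alone at 3 h passed the test for Hsd17b7, at 0.518 in log2 ratio (limma adjusted p = 0.0491), with the HI arrays above control and the Mg arrays below it.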

How the results depend on the processing

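A change of direction while called could be looked for only in genes set by name that were called in the main setting. These were Insig1 at HI 3 h, and Nsdhl and Srebf2 at 3 h in Experiment 2, and none changed direction. Other called genes and the single-channel calls were not checked for this. Of 948 values of the genes set by name under an alternative, 898 were counted as the same. For a called gene this meant that it stayed called, and for a gene without a call that it moved by less than its spread. Of the rest, 32 newly passed the threshold, 5 no longer did and 13 without a call moved by more than the spread. Counts of the 29 genes called are given below for the alternatives that moved them by more than 1.5 times, and the cause was not tested.

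Beside each count stands, in parentheses, the percent of all genes called under the same setting. With normexp, HI 3 h gave 11 calls (25.5%) against 2, HI 12 h 8 (4.38%) against 0, Exp2 12 h 2 (4.37%) against 0, HI 12 h minus HI 3 h 4 (0.33%) against 0, HI 3 h minus Mg 3 h 2 (1.57%) against 1, and HI 12 h minus Mg 12 h 7 (3.91%) against 0, and with normexp and quantile normalization the Cy5 comparison at 3 h gave 2 (10.9%) against 4. Without background correction the first 6 of these counts were 9 (25.9%), 8 (5.42%), 2 (4.18%), 4 (0.418%), 3 (2.05%) and 5 (0.183%). Normexp moved the median of the 29 genes to -0.24 at HI 12 h and to 0.0799 at Exp2 12 h, no background correction moved it to -0.25 at HI 12 h, and median centring moved it to 0.0652 at Exp2 12 h. Median centring gave 1 call at HI 3 h (16.6%) and 0 for HI 3 h minus Mg 3 h (0.589%). With no filter the counts were 0 at HI 3 h (0.146%), 1 at Exp2 3 h (1.96%), 0 for HI 3 h minus Mg 3 h (0.201%) and 2 for Cy5 at 3 h (4.11%). With the stricter filter they were 5 at HI 3 h (21.2%), 3 at HI 12 h (1.12%), 1 for HI 12 h minus HI 3 h (0.0839%), 2 for HI 3 h minus Mg 3 h (1.16%) and 1 for HI 12 h minus Mg 12 h (0.0413%). With the mean over probes they were 3 at Exp2 3 h (8.65%), 1 for HI 12 h minus HI 3 h (0.0404%), 0 for HI 3 h minus Mg 3 h (0.696%) and 1 for HI 12 h minus Mg 12 h (0.0542%). With a fold of 1.5 as well, they were 1 at HI 3 h (3.81%), 1 at Exp2 3 h (5.46%), 0 for HI 3 h minus Mg 3 h (0.669%) and 2 for Cy5 at 3 h (4.09%). In 1 fit over all groups they were 9 (12.5%), 1 (4.24%) and 1 (1.2%) at Mg 6, 12 and 24 h, 1 at HI 3 h (5.11%), 15 at HI 12 h (14.6%) and 2 at Exp2 12 h (7.6%). The methods' t-test at an unadjusted p under 0.05 gave 6 (10%), 9 (14.2%), 4 (11.9%) and 1 (11.1%) at Mg 3, 6, 12 and 24 h, 4 at HI 3 h (25.9%), 12 at HI 12 h (18.5%) and 3 at Exp2 12 h (15.1%), and after Benjamini-Hochberg adjustment 0 at HI 3 h (0.00688%) and 0 at Exp2 3 h (0%). Leaving out slide 4 at Mg 6 h gave 5 (17.2%), a setting chosen after seeing the data.

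With the replicate number as a block, 14 genes were called for Cy5 at 3 h (32%), 0 for HI 3 h minus Mg 3 h (0.1%), and no other paired comparison changed its count. Leaving out 1 array gave 0 to 1 calls at HI 3 h, 0 to 13 at HI 12 h, 1 to 6 at Exp2 3 h, 0 to 1 for HI 3 h minus Mg 3 h, 2 to 3 for Cy5 at 3 h, and 0 in every other comparison. The median of the 29 genes then ran from -0.04 to -0.01, -0.11 to -0.04, 0.03 to 0.09 and -0.02 to 0.05 at Mg 3, 6, 12 and 24 h, from 0.01 to 0.06 at HI 3 h, -0.38 to -0.31 at HI 12 h, 0.0037 to 0.0918 at Exp2 3 h and 0.02 to 0.04 at Exp2 12 h. A random slide block could not be fitted for HI 3 h, HI 12 h, Exp2 3 h, Exp2 12 h and HI 12 h minus Mg 12 h. Exp2 here is Experiment 2 as Cy5 over Cy3. Dim signals limit Srebf1 and Npc1.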
